A study of Homo sapiens with 2 samples.

Results

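The 49 genes described here belong to the interferon response and to the sensing of foreign or misplaced nucleic acid, and they were taken by name from the RefSeq gene table, out of 20033 protein-coding genes. All 49 were found. They were ordered by role into 6 sensors with their adaptors, 14 signalling genes and 29 effectors. Open chromatin around them was read from DNase-seq of U2OS and Saos-2, a pair of established human osteosarcoma lines. The labels name no treatment and no genetic change, so both lines are described as unstimulated cultures, each with 1 library. With 1 library per line there is no replicate error. Every difference below compares these 2 libraries, and none was tested. In this assay, DNase I cuts accessible DNA and regions dense in cuts are reported as hotspots, here at a false discovery rate of 0.05 on hg38.

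As background, DNA in the cytosol is bound by cGAS, whose product activates STING1, and viral RNA is bound by RIGI and IFIH1, which act through MAVS. Both routes use the kinase TBK1 and the factors IRF3 and IRF7 to switch on IFNB1. Secreted interferon binds its receptors, the kinases JAK1, JAK2 and TYK2 are activated, and a complex of STAT2 and IRF9 binds the interferon-stimulated response element of the effector genes. Interferon gamma acts instead through the gamma-activated site. Both lines are known to maintain telomeres without telomerase, and defects of the cGAS-STING route have been described in such lines. Accessibility is not expression, and a hotspot says only that DNA there was cut more often than its surroundings. A site open in fewer cells and a site less open in each cell cannot be told apart in these bulk libraries.

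The Saos-2 list held 51556 hotspots and the U2OS list 63388. A count is therefore read against all protein-coding genes, since the longer list favours U2OS. Within 10 kb of a member lay 97 Saos-2 hotspots and 87 U2OS hotspots, each counted once, and 4 and 2 of these, respectively, lay near more than 1 member. Of the Saos-2 hotspots, 62 were inside a member, 7 within 1 kb of it and 28 between 1 and 10 kb away. The U2OS numbers were 63, 3 and 21. The 1 kb limit fell between a Saos-2 hotspot 791 bp from IFI44L and a U2OS hotspot 1108 bp from OASL. Hotspots near marker genes were looked at as a check of the labels. Of 8 osteoblast and mesenchymal genes, 5 had a hotspot within 1 kb in Saos-2 and 6 in U2OS, and COL1A2 had none in either line. Of 8 blood-cell genes, PTPRC, CD3E and SPI1 had 1 in both lines and the other 5 in neither. The highest significance near SPI1, a blood-cell transcription factor, was 25.7 in U2OS against 10.4 in Saos-2. Hotspot presence within 1 kb of the span thus did not separate these marker lists. Only 3 genes of each list had an annotated start. Of these, 2 osteoblast and mesenchymal genes had a start hotspot in both lines and 1 in Saos-2 alone, while the 3 blood-cell genes had none.

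The promoters of 11 members carry the comparison and are shown first. They are the 6 members with a hotspot within 1 kb of an annotated start in only 1 line, and the 5 further members with at least 3 matches to the interferon response motifs. Sequences are from RefSeq on GRCh38.p14, from 250 bases before the start to 50 after it, and the table held an entry for 37 of the 49 members. Capitals mark the core of the interferon-stimulated response element, which is GAAA, then any 2 bases, then GAAA, on either strand, and the gamma-activated site TTCNNNGAA, which reads the same on both strands. The first 4 promoters below had a start hotspot in Saos-2 alone, the next 2 in U2OS alone.
ISG15, chr1:1013247-1013546, plus strand: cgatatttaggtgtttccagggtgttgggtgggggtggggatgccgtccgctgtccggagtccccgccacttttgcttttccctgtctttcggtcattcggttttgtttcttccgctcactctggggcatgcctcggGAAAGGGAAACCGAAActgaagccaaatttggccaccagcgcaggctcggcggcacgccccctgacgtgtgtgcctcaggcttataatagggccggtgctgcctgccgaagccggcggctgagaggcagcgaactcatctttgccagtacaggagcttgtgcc
IFI44L, chr1:78620198-78620497, plus strand: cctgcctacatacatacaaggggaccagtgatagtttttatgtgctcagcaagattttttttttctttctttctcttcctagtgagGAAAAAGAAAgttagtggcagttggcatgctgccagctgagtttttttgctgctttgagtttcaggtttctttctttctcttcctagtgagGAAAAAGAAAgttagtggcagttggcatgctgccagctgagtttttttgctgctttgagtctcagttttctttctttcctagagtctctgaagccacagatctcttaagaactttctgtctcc
MX1, chr21:41420308-41420607, plus strand: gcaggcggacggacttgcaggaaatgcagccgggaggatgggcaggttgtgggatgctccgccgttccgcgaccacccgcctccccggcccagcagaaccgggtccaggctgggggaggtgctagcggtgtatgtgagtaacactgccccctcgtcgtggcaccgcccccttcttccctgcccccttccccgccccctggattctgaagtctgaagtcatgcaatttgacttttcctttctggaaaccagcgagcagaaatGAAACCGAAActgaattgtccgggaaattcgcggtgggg
GBP1, chr1:89065159-89065458, minus strand: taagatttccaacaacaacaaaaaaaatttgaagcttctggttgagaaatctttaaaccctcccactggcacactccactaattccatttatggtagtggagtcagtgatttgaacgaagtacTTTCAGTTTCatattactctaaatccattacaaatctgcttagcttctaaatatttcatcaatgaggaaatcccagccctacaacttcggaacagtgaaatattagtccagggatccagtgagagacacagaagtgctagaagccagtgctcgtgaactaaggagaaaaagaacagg
IFIT3, chr10:89327747-89328046, plus strand: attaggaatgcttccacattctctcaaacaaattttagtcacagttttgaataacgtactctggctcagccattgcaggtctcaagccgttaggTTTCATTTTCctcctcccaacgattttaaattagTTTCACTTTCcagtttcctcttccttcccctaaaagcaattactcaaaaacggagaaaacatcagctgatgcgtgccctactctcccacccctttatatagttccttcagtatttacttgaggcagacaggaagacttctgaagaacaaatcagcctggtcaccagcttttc
OAS1, chr12:112906712-112907011, plus strand: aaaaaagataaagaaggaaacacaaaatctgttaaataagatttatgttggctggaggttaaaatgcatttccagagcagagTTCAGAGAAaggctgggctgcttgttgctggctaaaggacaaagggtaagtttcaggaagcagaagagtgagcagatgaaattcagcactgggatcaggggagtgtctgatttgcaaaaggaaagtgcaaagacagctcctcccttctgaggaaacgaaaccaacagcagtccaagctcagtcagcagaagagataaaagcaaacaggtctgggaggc

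The promoters with at least 3 matches are shown to compare a motif-rich start that was open with others that were not. IFI6 and IFIH1 had a start hotspot in both lines. BST2, IFI27 and IFIT5 had none in either line.
IFI6, chr1:27672143-27672442, minus strand: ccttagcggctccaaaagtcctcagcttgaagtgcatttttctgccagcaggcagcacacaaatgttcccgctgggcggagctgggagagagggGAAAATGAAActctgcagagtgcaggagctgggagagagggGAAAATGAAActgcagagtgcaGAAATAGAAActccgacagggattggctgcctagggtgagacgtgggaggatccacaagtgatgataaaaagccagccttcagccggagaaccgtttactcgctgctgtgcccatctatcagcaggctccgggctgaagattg
IFIH1, chr2:162318635-162318934, minus strand: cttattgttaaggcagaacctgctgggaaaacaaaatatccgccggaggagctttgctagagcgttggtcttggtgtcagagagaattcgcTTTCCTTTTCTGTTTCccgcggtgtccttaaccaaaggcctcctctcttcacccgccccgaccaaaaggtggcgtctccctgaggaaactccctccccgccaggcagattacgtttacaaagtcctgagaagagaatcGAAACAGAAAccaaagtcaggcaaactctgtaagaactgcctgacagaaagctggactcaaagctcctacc
BST2, chr19:17405581-17405880, minus strand: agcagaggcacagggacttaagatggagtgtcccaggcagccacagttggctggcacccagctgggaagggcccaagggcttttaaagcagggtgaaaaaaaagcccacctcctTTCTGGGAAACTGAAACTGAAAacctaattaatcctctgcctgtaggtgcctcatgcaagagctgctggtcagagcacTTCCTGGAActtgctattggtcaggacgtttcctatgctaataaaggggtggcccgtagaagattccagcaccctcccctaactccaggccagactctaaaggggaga
IFI27, chr14:94110486-94110785, plus strand: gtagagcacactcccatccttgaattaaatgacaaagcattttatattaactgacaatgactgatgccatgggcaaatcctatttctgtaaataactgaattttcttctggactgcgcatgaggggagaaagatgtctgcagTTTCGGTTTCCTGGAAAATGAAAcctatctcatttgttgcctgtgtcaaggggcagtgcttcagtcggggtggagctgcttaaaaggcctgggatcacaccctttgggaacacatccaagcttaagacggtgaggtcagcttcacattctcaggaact
IFIT5, chr10:89414318-89414617, plus strand: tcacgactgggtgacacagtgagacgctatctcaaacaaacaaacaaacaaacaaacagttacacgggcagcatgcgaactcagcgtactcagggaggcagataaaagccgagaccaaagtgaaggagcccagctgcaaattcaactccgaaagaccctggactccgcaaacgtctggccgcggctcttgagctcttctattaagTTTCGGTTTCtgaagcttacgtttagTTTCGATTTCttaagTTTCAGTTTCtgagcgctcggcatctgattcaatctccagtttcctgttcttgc

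Most of these genes, like most protein-coding genes, had open chromatin in both lines. A hotspot lay within 1 kb of the gene span in both lines for 31 of 49 members (63.3%, Wilson 95% interval 49.3 to 75.3%). It was found in Saos-2 alone for 6 (12.2%), in U2OS alone for 3 (6.12%) and in neither for 9 (18.4%). Among all protein-coding genes, 12027 of 20033 had such a hotspot in both lines. Saos-2 alone had it at 4.75% of them and U2OS alone at 10.7%, and 24.5% had none. The order of the single-line classes among the members was the opposite of that in the genome, although each rests on a few genes. The interval was 5.7 to 24.2% for the Saos-2 share and 2.1 to 16.5% for the U2OS share. These intervals cover counting error only, take the genes as independent and are no test against the genome share. The count also depended on the window. Counted on the gene span without flank, Saos-2 alone had 4 members and U2OS alone 5, against 5.10% and 11.3% of all protein-coding genes. With hotspots of at least 200 bp the numbers were 4 and 6 (5.28% and 12.7% in the genome), so the order turned. Within 10 kb they were 3 and 1 (4.23% and 10.9%).

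**Figure D1:**
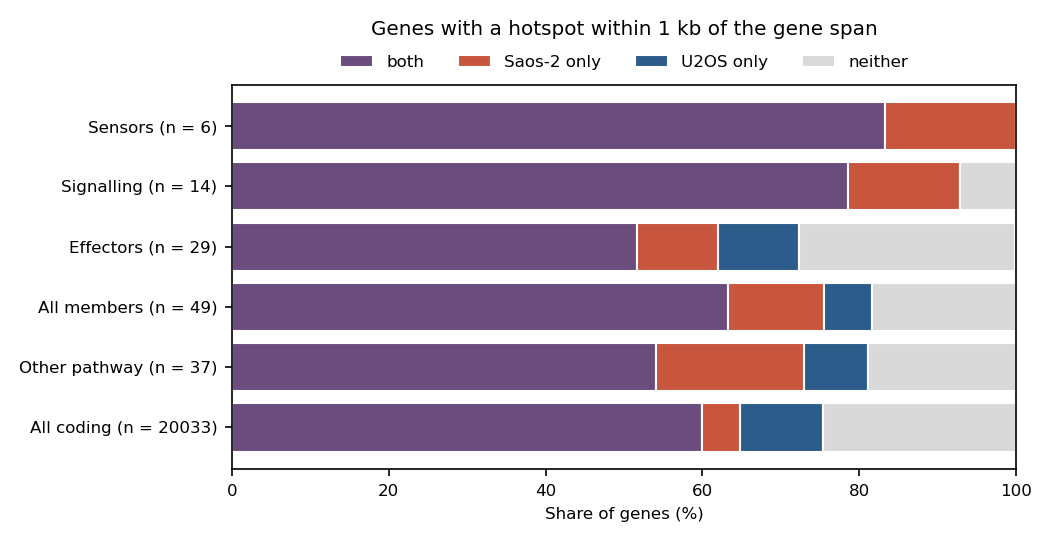
Share of genes (%) with a hotspot within 1 kb of the gene span in both lines, in Saos-2 alone, in U2OS alone or in neither, for each role, for 37 other pathway genes and for all protein-coding genes. The 6 sensors and 14 signalling genes had no U2OS-only gene, against 10.7% of all protein-coding genes. No hotspot in either line was found for 27.6% of the effectors, close to the 24.5% of all protein-coding genes.

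By role the counts are small, and the intervals of the shares overlap. All 6 sensors and adaptors had a hotspot within 1 kb in at least 1 line, 5 of them in both. Of the 14 signalling genes 11 had 1 in both lines, 2 in Saos-2 alone (IRF7 and IFNGR2) and 1 in neither (IFNB1). Of the 29 effectors 15 had 1 in both lines (51.7%, interval 34.4 to 68.6%), 3 were in Saos-2 alone (ISG15, IFI44L and GBP1), 3 in U2OS alone (IFIT3, OAS1 and OASL) and 8 in neither (27.6%, 14.7 to 45.7%). Both intervals held the genome share. The median number of hotspot bases within 10 kb of the gene was 520 bp (Saos-2) and 468.5 bp (U2OS) for the sensors. For signalling genes the medians were 893.5 and 705.5 bp, and for effectors 355 and 281 bp. Over all protein-coding genes the medians were 424 and 532 bp. Gene by gene, the median of the U2OS value minus the Saos-2 value was 28 bp over all protein-coding genes and 0 over the members. It was 15.5 bp for sensors, 20 bp for signalling genes and -45 bp for effectors. U2OS had more bases at 3 of 6 sensors and 8 of 14 signalling genes, so in this gene-by-gene count the effectors alone leaned towards Saos-2. The group medians above were higher in Saos-2 for every role. The median gene span, which sets the window, was 40.4 kb for sensors and 28.3 kb for signalling genes, against 21.5 kb for all members and 24.1 kb for protein-coding genes.

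A gene was called different when its hotspot bases within 10 kb differed at least 2-fold and by at least 300 bp. By this rule 7 members were higher in Saos-2, against 7.02% of all protein-coding genes, and 5 were higher in U2OS, against 16.7%. As shares of the members these were 14.3% (interval 7.1 to 26.7%) and 10.2% (4.4 to 21.8%). These intervals take the genes as independent, although some neighbours share hotspots, so they are no test against the genome shares. The members higher in Saos-2 were IFNAR1, IFI6, IFI44, IFI44L, MX1, MX2 and OAS2. Those higher in U2OS were RIGI, IRF1, ISG20, IFIT3 and OASL. Among effectors, 15 had more hotspot bases in Saos-2, 9 had more in U2OS and 5 had none in either line. Over the 20033 protein-coding genes, 6579 had more in Saos-2, 10554 had more in U2OS and 2900 were equal.

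**Figure D2:**
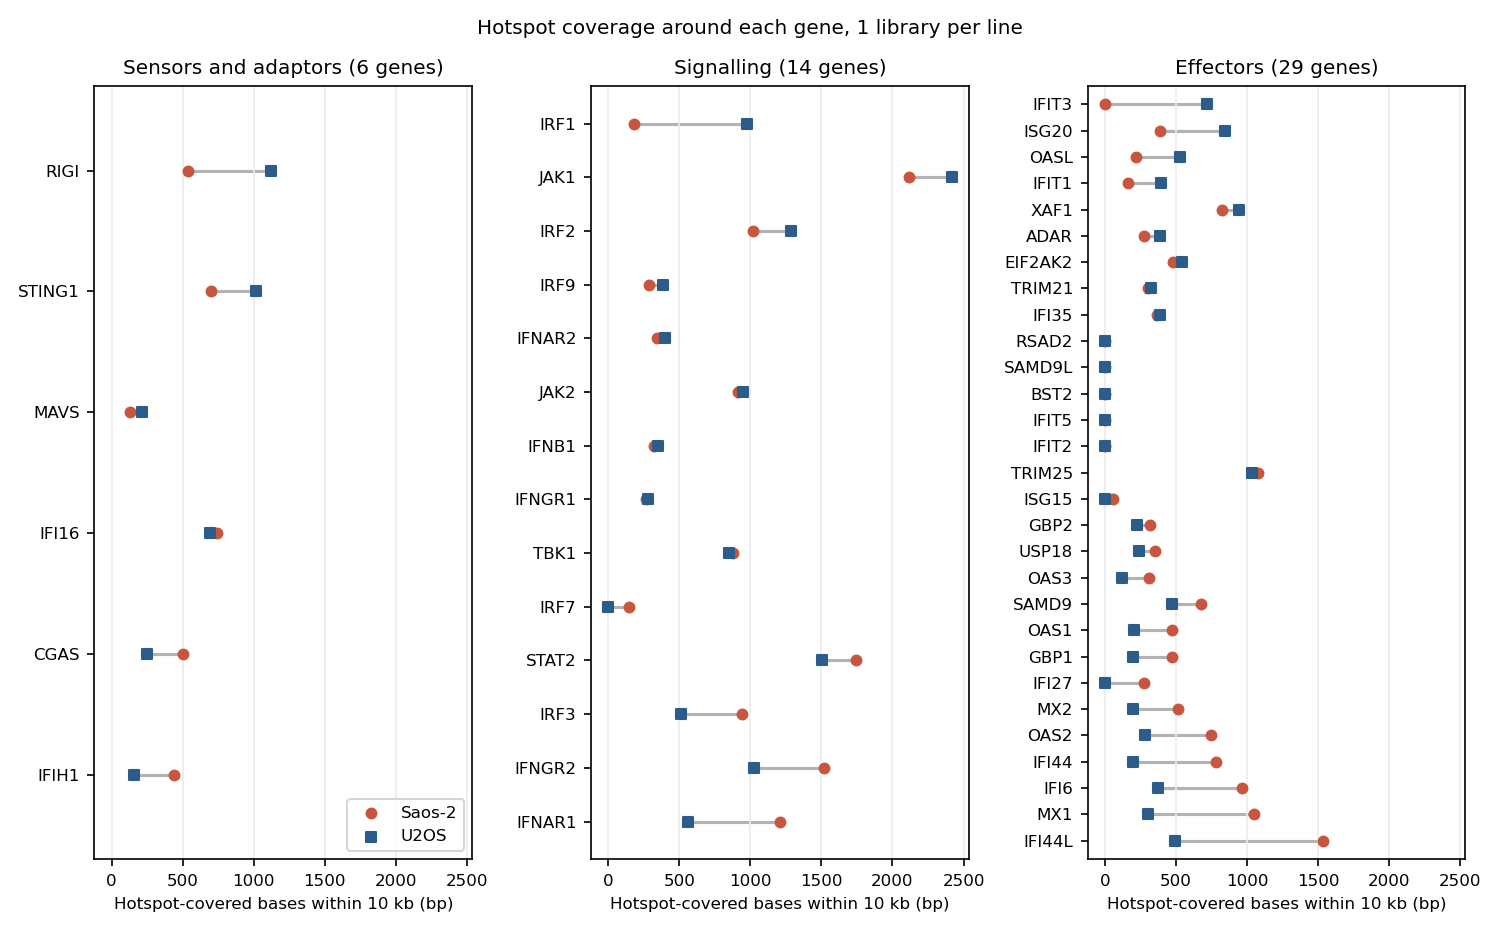
Hotspot-covered bases within 10 kb of each of the 49 genes, with circles for Saos-2 and squares for U2OS, 1 library each, joined by a line and sorted by the difference. IRF1, RIGI and IFIT3 lie farthest towards U2OS, while IFI44L, MX1 and IFNAR1 lie farthest towards Saos-2.

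Within 1 kb of the gene span, the DNA sensors were open in both lines, with CGAS as the exception. CGAS, which makes the second messenger that activates STING1, had a 166-bp Saos-2 hotspot at its higher-coordinate end (chr6:73452189-73452354) with a significance of 2.37, and no U2OS hotspot within 1 kb. Here significance is the value deposited for each hotspot, which runs from 1.3 to 100. Its meaning is not stated in the file, and it was read as the −log10 of a false discovery rate because its lowest value matches the threshold of 0.05. Its median was 4.05 in the Saos-2 list and 4.60 in the U2OS list, so the CGAS hotspot was a weak one. Saos-2 had a further weak hotspot (2.01) 1126 bp from the gene. One 9320 bp beyond the gene was shared, at 6.55 and 7.40. STING1, the adaptor in the endoplasmic reticulum, had the strongest sensor-group hotspot of Saos-2. It lay at chr5:139482147-139482549 with a significance of 15.9, and the U2OS hotspot over it, 458 bp wide, had 20.1. A second pair lay at the higher-coordinate end of the gene, whose strand was not available, at 5.58 and 4.99. U2OS had a further hotspot of 3.45 inside STING1, and another of 3.78 that lay 9927 bp from it. IFI16, a nuclear DNA sensor, had 3 Saos-2 hotspots and 4 U2OS hotspots. In each line 3 coincided, with the highest at 5.46 in Saos-2 and 5.19 in U2OS, away from the annotated starts. The pair at an annotated start had 3.42 in Saos-2 and 1.40 in U2OS, where it was 60 bp wide. Both values lie below the medians of their lists. The U2OS hotspot of this pair was lost when the lists were trimmed to equal length.

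Among the RNA sensors and their adaptor, all 3 genes had hotspots in both lines and RIGI alone was called different. RIGI, which binds viral RNA with a free triphosphate end, had 536 hotspot bases in Saos-2 and 1119 in U2OS, a 2.09-fold difference. At its start, a single U2OS hotspot of 635 bp with a significance of 22.3 covered a pair of Saos-2 hotspots of 5.32 and 3.01. A second U2OS hotspot of 15.3, at chr9:32502500-32502912 inside the gene, had no Saos-2 counterpart. IFIH1, the sensor of long double-stranded RNA, had start hotspots of 2.59 in Saos-2 and 2.94 in U2OS. A Saos-2 hotspot inside the gene (2.90) and 1 beyond it (2.24) had no counterpart, so the Saos-2 total was 440 bp and the U2OS total 160 bp. This missed the call by size, at a difference of -280 bp. The IFIH1 start also lies within 1 kb of a start of GCA. MAVS, the mitochondrial adaptor of both RNA sensors, had only a start hotspot within 10 kb, at 2.54 (Saos-2) and 3.34 (U2OS). Over the group, U2OS had the higher maximum in 4 of the 5 genes open in both lines, as it did in 7887 of 12027 protein-coding genes.

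Kinases and transcription factors of the pathway were mostly shared. TBK1, the kinase below STING1 and MAVS, had 3 hotspots in each line at matching places. Its start hotspot reached 12.9 in U2OS against 2.94 in Saos-2, while a hotspot 9.7 kb into the gene had 7.62 in U2OS against 11.5 in Saos-2. JAK1, which serves interferon and many cytokine receptors, had 9 Saos-2 and 10 U2OS hotspots within 10 kb. Its highest lay inside the gene at chr1:64898058-64898508, with 17.3 in U2OS and 8.91 in the Saos-2 hotspot over it. JAK2, the kinase of the interferon gamma receptor, had 910 and 946 hotspot bases. STAT2 had the most significant hotspot of all members in both lines. At its start the Saos-2 value was 30.8 and the U2OS value 65.8, and 98.7% and 99.9% of the respective lists lay at or below them. The start hotspot of IRF9, the DNA-binding partner of STAT2, was 5.03 in Saos-2 and 10.5 in U2OS.

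IRF1 stood apart within this group. It encodes an early factor of the gamma interferon response, and it had 185 hotspot bases in Saos-2 and 978 in U2OS, a 5.29-fold difference. Its start hotspot was 71 bp wide at 1.57 in Saos-2 and 275 bp wide at 5.38 in U2OS. Upstream, U2OS had hotspots 5028, 5406 and 6943 bp before the gene, and only the last was matched in Saos-2, at 1.94 against 5.72. The direction did not hold in a wider window: within 50 kb the difference was -300 bp, and within 1 kb it was 204 bp, short of the call. IRF2, often an antagonist of IRF1, had a shared hotspot at its higher-coordinate end, at 9.92 (Saos-2) and 13.3 (U2OS). Another inside the gene had 7.71 and 9.32. IRF3, which STING1 and MAVS activate, had 941 bp (Saos-2) and 515 bp (U2OS). Its strongest hotspot, of 9.86 and 5.68, also lies within 1 kb of a start of BCL2L12. IRF7, which amplifies the response, had 1 Saos-2 hotspot of 2.64 located 30 bp beyond its higher-coordinate end, and no U2OS hotspot within 10 kb. No strand was available for IRF7, so this end was not named as its start or its finish.

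Of the 3 receptor genes on chromosome 21, IFNAR1 and IFNGR2 had more hotspot bases in Saos-2, and IFNAR2 had more in U2OS. IFNAR1 had 1209 hotspot bases in Saos-2 and 560 in U2OS, with an 819-bp start hotspot of 14.8 in Saos-2 and a 455-bp one of 8.26 in U2OS. IFNAR2, its partner chain, had 344 hotspot bases in Saos-2 and 402 in U2OS, from 2 hotspots each, and none of them overlapped. Of the U2OS pair, 1 (3.35) lay 8 bp before the lower-coordinate end and the other (3.55) inside. The Saos-2 pair lay farther in, at 1.46 and 4.70. IFNGR2 had 1515 and 1028 bases, with no start hotspot in either line. A strong site 1.5 kb before the gene was shared at 18.5 and 18.4, and 1 Saos-2 hotspot of 4.57 inside the gene was unmatched. With MX1 and MX2, chromosome 21 held 5 members, with 4629 hotspot bases in Saos-2 and 2493 in U2OS. The whole chromosome had 710 Saos-2 hotspots and 621 U2OS hotspots, the reverse of the genome order. The part of this chromosome-wide difference in the values of the 5 genes was not tested. IFNGR1, on chromosome 6, had 1 start hotspot per line, at 5.11 and 4.61.

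IFNB1, the interferon that the sensors induce, had no hotspot within 1 kb in either line. The nearest hotspot was shared and lay 6.6 kb away, at 8.33 in Saos-2 and 11.2 in U2OS. Its promoter has 1 CpG and 1 gamma-activated site, outside any hotspot.

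Of the 29 effectors, 6 were called higher in Saos-2 (20.7%, interval 9.8 to 38.4%) and 3 in U2OS (10.3%, 3.6 to 26.4%). The shares of all protein-coding genes were 7.02% and 16.7%. Not called were 69.0% of the effectors (interval 50.8 to 82.7%), against 76.3% of all protein-coding genes. These intervals cover counting error only and are no test against the genome shares. The IFIT genes on chromosome 10 bind viral RNA and are among the most strongly induced by interferon. IFIT3 had no Saos-2 hotspot within 10 kb and 3 in U2OS, covering 717 bp. A U2OS pair of 1.43 and 7.49 began just after the start, and the highest, 12.7, lay inside the gene 5197 bp from the nearer of 2 annotated starts (chr10:89337560-89337893). IFIT1 had a start hotspot of 2.68 in Saos-2 and 5.73 in U2OS, with a further U2OS hotspot of 1.70 before it. IFIT2 and IFIT5 had none within 10 kb in either line. Within this cluster U2OS thus had 5 hotspots and Saos-2 had 1.

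IFI44L and IFI44, neighbours on chromosome 1 that rise together in most interferon signatures, went the other way. IFI44L had 1536 hotspot bases in Saos-2 and 493 in U2OS, a difference of -1043 bp. The hotspots of IFI44 are counted in this window, and within 1 kb the difference was -425 bp. Its Saos-2 start hotspot covered 301 bp at 6.88 with no U2OS overlap, and a second lay 791 bp before the gene at 1.93. A shared hotspot 2.6 kb before the gene had 17.1 in Saos-2 and 12.7 in U2OS. IFI44 had 3 Saos-2 hotspots and 1 in U2OS. The start hotspot was common to both at 6.57 and 4.64, and a Saos-2 hotspot of 9.43 lay 1.6 kb into the gene. The values of these neighbours are thus not independent. GBP1, a GTPase that attacks intracellular microbes, had a Saos-2 hotspot of 7.31 located 40 bp before its start, with none in U2OS within 1 kb. GBP2 was shared at 6.29 and 3.41.

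The antiviral GTPases MX1 and MX2 were both called higher in Saos-2, MX2 by a narrow margin. MX1 had a 423-bp Saos-2 hotspot of 11.2 over its outermost start, with no U2OS hotspot, and that start was the only 1 of 3 annotated starts with any. Inside the gene a site 14.7 kb from the nearest start was shared, at 17.4 in Saos-2 and 9.38 in U2OS. Totals were 1047 and 302 bp. MX2 had 514 and 201 bp, from 3 Saos-2 hotspots and 1 U2OS hotspot. The pair that coincided had 5.70 and 3.05. The MX2 difference of -313 bp fell short of the call with hotspots of at least 200 bp (-76 bp) and in the most significant 50% of each list (-277 bp).

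The OAS genes make the activator of RNase L when they meet double-stranded RNA. OAS1 had a start hotspot in U2OS alone, 87 bp wide at 1.56, which is close to the lowest value in the list, and it was absent when the lists were trimmed to equal length. The OAS3 start hotspot had 5.87 in the Saos-2 list and 1.95 in the U2OS list, where it was also lost with equal lists. In OAS2 the sites lay well inside the gene, where Saos-2 hotspots covered 748 bp and U2OS hotspots 281 bp. OASL, a relative that enhances RIGI signalling, had a U2OS hotspot of 4.71 inside it and a shared one 1.1 kb away at 4.32 and 5.48. Of these 4 genes, OAS2 was called higher in Saos-2 and OASL higher in U2OS. The OASL difference of 312 bp was under the 300 bp limit in the other windows, at 276 bp within 1 kb and 250 bp within 50 kb.

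Among the small inducible genes, ISG15, a ubiquitin-like modifier, had a 58-bp Saos-2 hotspot of 1.56 just before its start and none in U2OS within 10 kb. Only 3.0% of the Saos-2 list lay at or below that value. USP18, which removes ISG15 from proteins, had 1 hotspot per line at different places, at 7.66 in Saos-2 and 3.48 in U2OS. IFI6 had shared start hotspots of 8.05 and 6.30. A Saos-2 hotspot of 10.7 located 6.6 kb away had no counterpart, which made up most of 965 against 377 bp, and within 1 kb the difference was -28 bp. ISG20, an exonuclease, had 387 bp in Saos-2 and 846 in U2OS, with start hotspots of 5.57 and 11.0, and within 50 kb the difference was 197 bp. IFI27 had a single Saos-2 hotspot of 8.46, 4.7 kb before the gene. IFI35 had only the shared site at RPL27, at 7.93 and 8.90, more than 8 kb off. XAF1 had a shared pair 2 to 3 kb before its gene, with the higher at 19.3 in Saos-2 and 20.4 in U2OS.

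A further set had start hotspots in both lines. Start hotspots were shared for EIF2AK2 (7.48 in Saos-2, 8.89 in U2OS), the kinase that stops translation on double-stranded RNA. The same was true of ADAR (2.69 and 2.06), the RNA editing enzyme, which also had a site of 2.23 and 6.36 near another start. TRIM21, the cytosolic antibody receptor, had 8.93 and 13.6. TRIM25, the ligase that modifies RIGI, had 6.58 and 6.39, and a stronger shared site before the gene had 15.5 and 19.4. SAMD9, which restricts poxviruses, had 13.1 and 13.4 at its start, while its neighbour SAMD9L had no hotspot within 10 kb in either line. Along with IFIT2, IFIT5 and SAMD9L, the tetherin gene BST2 and the viperin gene RSAD2 completed the 5 members with no hotspot in either window.

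**Figure D3:**
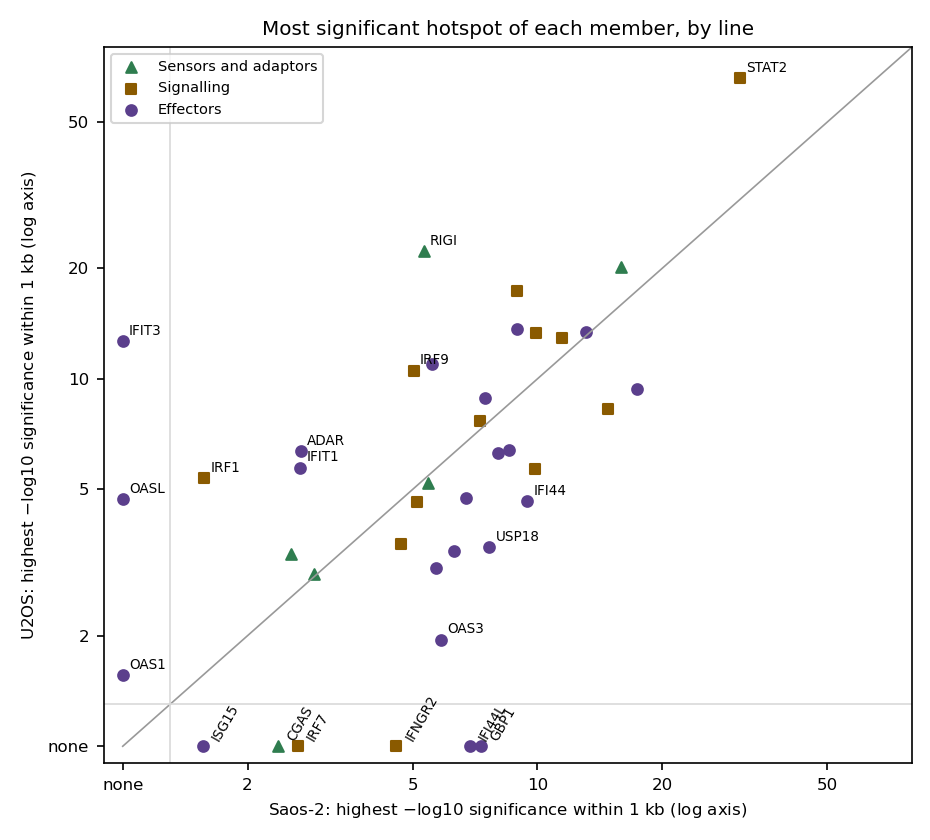
Highest −log10 significance of a hotspot within 1 kb of each member, Saos-2 on the horizontal and U2OS on the vertical log axis; genes without a hotspot in a line sit at "none", the grey diagonal marks equal values, thin lines mark the lowest value of the lists, and names mark members in 1 line only or at least 2-fold apart. STAT2 is highest in both lines, at 30.8 and 65.8.

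For the 31 members open in both lines, the most significant hotspot within 1 kb was higher in Saos-2 for 14 and in U2OS for 17. By role, Saos-2 was higher for 1 of 5 sensors, 4 of 11 signalling genes and 9 of 15 effectors. Over the 12027 protein-coding genes open in both lines, Saos-2 was higher for 34.4%. Significance depends on the depth of a library, which is unknown. The part of depth in the gaps between values set side by side was not tested.

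Most member hotspots coincided between lines. Of the Saos-2 hotspots within 10 kb of a member, 66.0% (interval 56.1 to 74.6%) were overlapped by a U2OS hotspot, against 60.8% of those near any protein-coding gene. Of the U2OS hotspots, 71.3% (61.0 to 79.7%) were overlapped, against 51.8%. At annotated member starts, 30 of 37 Saos-2 hotspots (81.1%) were overlapped, the same share as at the starts of all protein-coding genes (81.1%). For U2OS it was 28 of 32 (87.5%), against 72.7%, a value inside the interval of the member share. Elsewhere within 10 kb the numbers were 34 of 60 Saos-2 hotspots (56.7%, 44.1 to 68.4%), against 53.2%, and 34 of 55 U2OS hotspots (61.8%, 48.6 to 73.5%), against 44.6%.

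**Figure D4:**
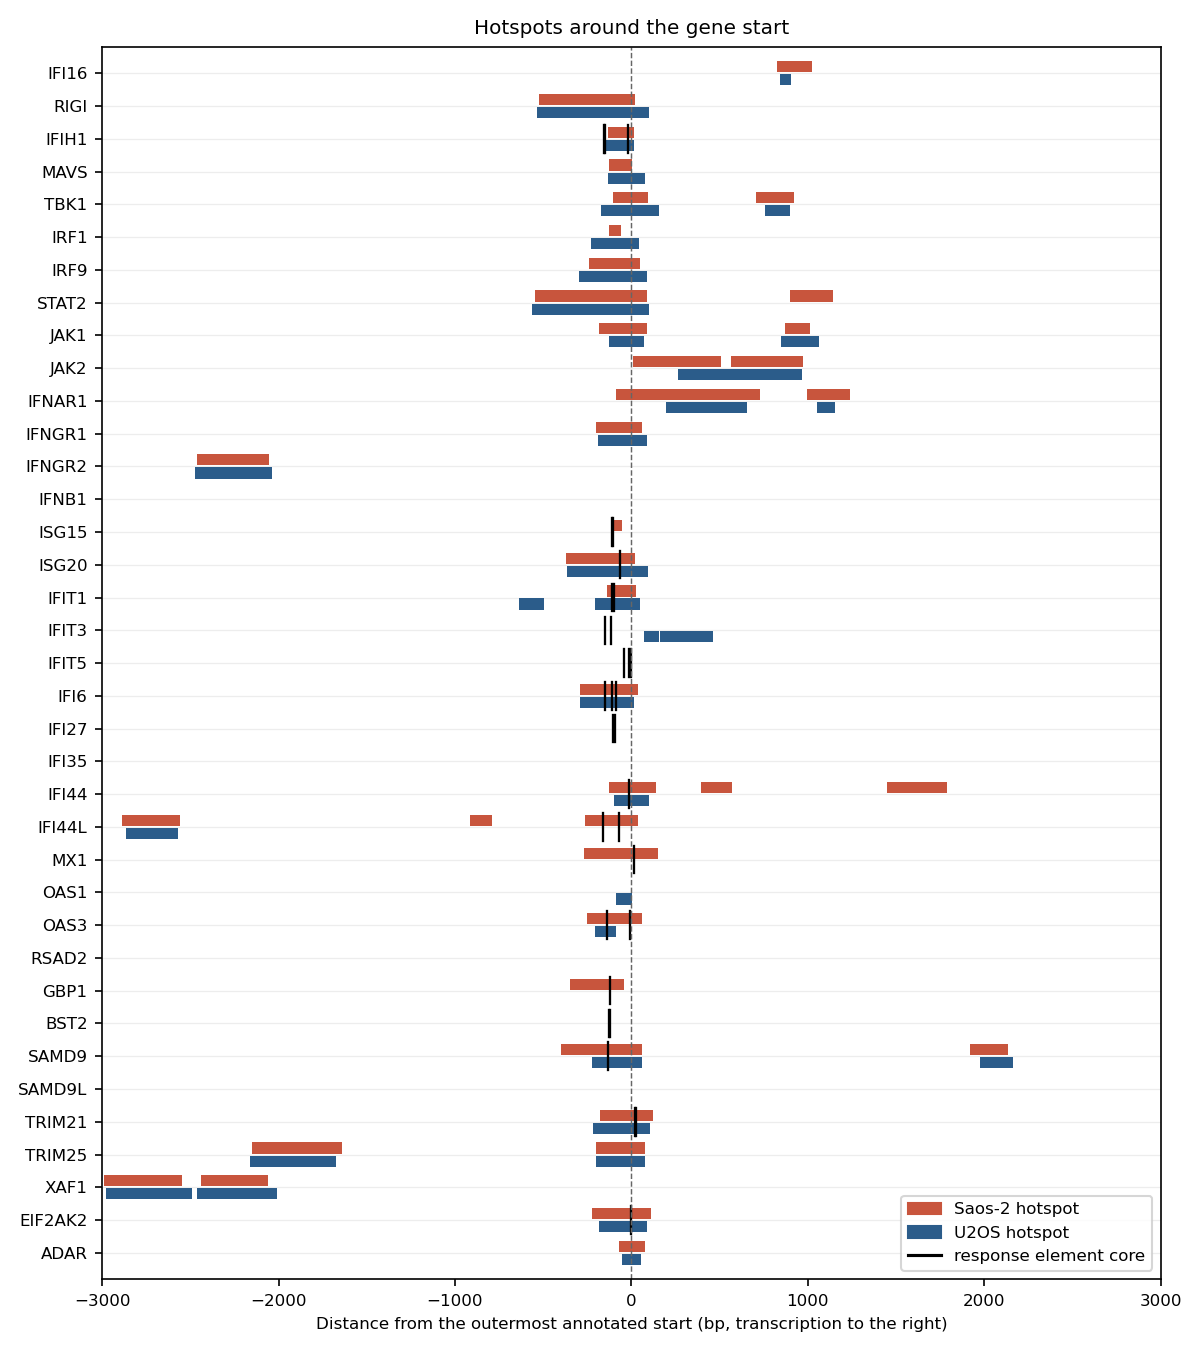
Hotspots of Saos-2 (upper bar) and U2OS (lower bar) within 3 kb of the outermost annotated start of the 37 members with a promoter entry, with transcription to the right, distance in bp, and black ticks for the response element core. At IFI44L, MX1, GBP1 and ISG15 only Saos-2 has a bar at the ticks, and at IFIT3 the U2OS bars lie after them.

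Starts gave the same order as gene spans. Of 37 members with an annotated start, 22 had a hotspot within 1 kb of it in both lines, 4 in Saos-2 alone, 2 in U2OS alone and 9 in neither. In the genome, 46.3% of 15842 genes were in the first class, 4.78% in Saos-2 alone, 9.54% in U2OS alone and 39.3% in neither. All 6 members in the single-line classes were effectors, which made up 23 of the 37. With lists of equal length, Saos-2 alone had 6 members and U2OS alone 1, against genome shares of 6.70% and 7.30%. Those in Saos-2 alone then included a sensor, IFI16. In the most significant 50% of each list the numbers were 4 and 5 (5.52% and 9.56% in the genome). With hotspots of at least 200 bp they were 5 and 5 (4.65% and 10.4%), so the order did not hold in these settings. For the 12 members without an entry (CGAS, STING1, IRF2, IRF3, IRF7, IFNAR2, IFIT2, MX2, OAS2, OASL, GBP2 and USP18) either end of the gene was used. CGAS, IRF7 and USP18 then had a hotspot in Saos-2 alone and IFNAR2 in U2OS alone. STING1, IRF2, IRF3 and GBP2 had 1 in both lines, and the other 4 had none.

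The response element core was mostly found in effectors. It occurred in the promoter of 17 of 23 effectors (73.9%), of 1 of 4 sensors (IFIH1) and of 0 of 10 signalling genes, against 4.16% of protein-coding genes. Counted by promoter, 22 of 54 member promoters (40.7%) held it, against 3.17% of 22182. The gamma-activated site was found in 5 effectors and in 3 signalling genes, IRF1, IRF9 and IFNB1, which is 21.6% of the 37 members against 8.98% of genes. The motifs overlapped each other at 4 places, in BST2, IFI27 and MX1, and core matches overlapped one another in BST2, IFIH1, ISG15 and TRIM21. Such a match is a sequence description and not evidence of binding.

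Core matches inside hotspots, with exactly 2 bases between the repeats, were covered in both lines or in Saos-2 alone. Other spacings were not searched. The OAS1 promoter holds gaaacgaaa, with a shorter gap, inside its U2OS hotspot, and this was not counted. Of 35 matches at 18 members, 13 lay whole in hotspots of both lines, 6 in a Saos-2 hotspot only, 0 in a U2OS hotspot only and 16 in none. The 6 belong to ISG15, IFI44L (2 matches), MX1, GBP1 and OAS3. Both IFI44L matches lay in the same hotspot, and the ISG15 hotspot was a weak one of 1.56. The same split was not computed over the promoters of all protein-coding genes, so these counts have no background share. In IFIT3, the effector open in U2OS alone, all 4 matches lay outside its hotspots. In IFI6 all 3 matches lay in hotspots of both lines. In IFIT5 (3 matches), BST2 (2) and IFI27 (2) none was covered in either line. Of 9 gamma-activated matches, those of IRF1 and IRF9 were covered in both lines and the other 7 in neither.

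Among the 18 members with the core, 9 had a start hotspot in both lines, 4 in Saos-2 alone, 1 in U2OS alone and 4 in neither. Among 641 other protein-coding genes with the core, 6.08% (interval 4.5 to 8.2%) were in Saos-2 alone and 9.05% (7.1 to 11.5%) in U2OS alone. Genes without the core and outside the list had 4.72% and 9.58%. The 4 members in Saos-2 alone were 22.2% (interval 9.0 to 45.2%) of 18 genes chosen by name, with earlier results of these data known. This interval covers counting error only and is no test against the shares of either group.

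CpG content also differed by role. The ratio of observed to expected CpG, taken as the highest over the promoters of a gene, had a median of 0.77 in sensors, 0.91 in signalling genes and 0.38 in effectors, against 0.80 over protein-coding genes. Members with a start hotspot in both lines had a median of 0.78. The median was 0.51 for Saos-2 only, 0.25 for U2OS only and 0.30 for neither. There were exceptions in both directions. IFI44 has no CpG in its promoters and was open in both lines, whereas 1 of the RSAD2 promoters has a ratio of 1.06 and was open in neither.

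**Figure D5:**
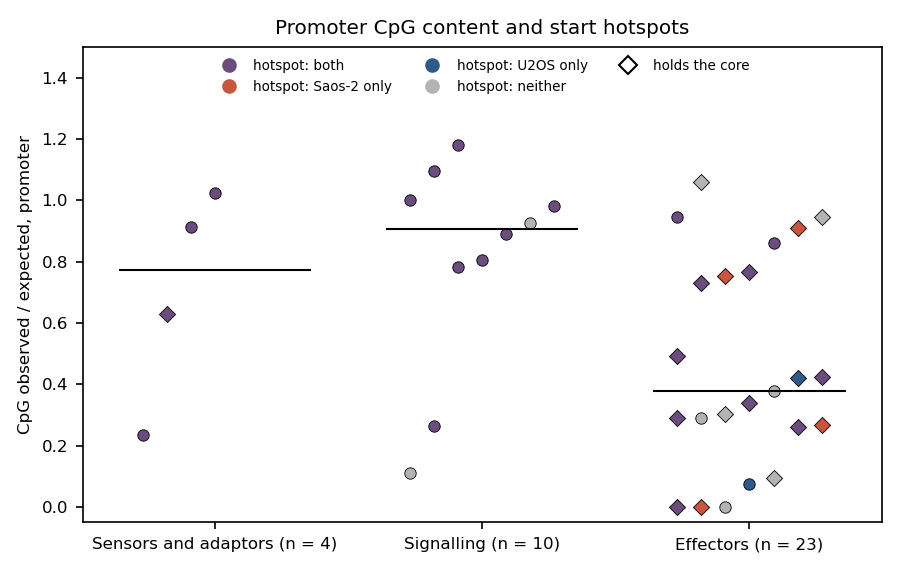
Observed to expected CpG ratio of the promoter (highest per gene) for the 37 members with an entry, by role, coloured by the line with a start hotspot, with diamonds for genes that hold the response element core and a bar at the median. Effectors have the lowest median, 0.38, and 17 of the 18 diamonds.

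Other genes of the pathway were taken from a separate list of 37 genes. A hotspot within 1 kb lay in both lines for 20, against 12027 of 20033 protein-coding genes. It lay in Saos-2 alone for 7 (18.9%, interval 9.5 to 34.2%), against 4.75% of protein-coding genes. In U2OS alone there were 3 (8.11%, 2.8 to 21.3%), against 10.7%, and in neither line 7 (18.9%), against 24.5%. The intervals in this paragraph cover counting error only and are no test against the genome shares. The Saos-2 genes were IRF4, DHX58, HERC5, PARP9, NMI, RTP4 and UBA7, with HERC5, the ligase for ISG15, at 16.5, PARP9 at 10.8 and IRF4 at 6.88. The other 4 were weak, DHX58 at 3.32, NMI at 3.20, UBA7 at 2.56 and RTP4 at 2.49. The U2OS genes were IRF8 at 1.95, ZBP1 at 2.19 and IFITM2 at 3.17. At annotated starts, 7 of 30 genes were in Saos-2 alone (23.3%, interval 11.8 to 40.9%), against 4.78% of all protein-coding genes. In U2OS alone there were 0 of 30, against 9.54%, and the interval allows a share of up to 11.4%. The 7 were AIM2, HERC5, PARP9, DTX3L, NMI, EPSTI1 and RTP4, and PARP9 and DTX3L are neighbours. Within 1 kb of its span DTX3L had hotspots in both lines, with the highest at 2.30 in Saos-2 and 8.23 in U2OS. The core was present in 15 of these 30 genes. Covered bases were called higher in Saos-2 for 6 of the 37 (16.2%, interval 7.7 to 31.1%, against 7.02% of protein-coding genes) and in U2OS for 4 (10.8%, 4.3 to 24.7%, against 16.7%). Without the call, more bases lay in U2OS at 22 genes and in Saos-2 at 13, and the median of the U2OS value minus the Saos-2 value was 104 bp.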

How the data were processed

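DNase-seq was analysed from 2 samples, 1 library each of Saos-2 and U2OS, as the hotspot list deposited for each. Per the submitters' processing notes, Trimmomatic 0.38, BWA 0.7.15 and hg38 were used; the hotspot caller is not given in the sources used here. The deposited lists give each hotspot a position, a value taken here, from its range, as a −log10 significance (1.3 to 100), and a score, which is 10 times that value and was not used. The meaning of neither is stated by the authors in the files. Read depth is unknown, so precision is given only as Wilson 95% intervals for counting error.

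Positions were compared with RefSeq gene spans and promoters (GRCh38.p14, a patch release of the build called hg38) in Python 3.11.15 with pandas 2.3.3 and numpy 2.4.6, with intervals from statsmodels 0.14.6. A promoter runs from 250 bases before a start to 50 after it. Windows were 1 kb and 10 kb around the span and 1 kb around each start; a start or, without a promoter entry, either gene end was used. The script was tested on simulated hotspots. Members, roles, lists and rules were chosen with earlier results of these data known. Named genes are all members, described by hotspots in 1 line, called coverage, the highest significance per role, or absence; other pathway genes are named where in 1 line.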

Additional observations from a re-analysis of the deposited data

How the results depend on the processing

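No paired analysis was possible because each line has 1 library, and no replicate could be left out. Depth is unknown, and a deeper library yields more hotspots, so counts in 1 line only depend on list length and on weak hotspots such as those of ISG15 and OAS1. Of 70 recomputed summary values, 58 stayed within 1.5-fold of their count, or within the interval of their share, and 12 did not. Of 72 recomputed differences for the 12 called genes, 1 reversed, which was IRF1 within 50 kb at -300 bp, and 12 others moved by over 1.5-fold. The cause was not tested.

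In brackets are the shares of all protein-coding genes in the same setting. Members with a hotspot within 1 kb in U2OS only numbered 5 in the most significant 50% of each list (12.5%). They numbered 6 with hotspots of at least 200 bp (12.7%) and 5 with the span alone (11.3%). Within 10 kb Saos-2 alone had 3 (4.23%) and U2OS alone 1 (10.9%). Start hotspots in U2OS only numbered 1 with equal lists (7.30%), 5 in the top 50% (9.56%) and 5 at 200 bp or more (10.4%). Those in both lines numbered 14 in the top 50% (31.9%). Members called higher in Saos-2 numbered 12 in the top 50% (8.85%) and 11 at 200 bp or more (7.32%). Members called higher in U2OS numbered 3 within 1 kb (13.0%).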
